A study of Mus musculus with 24 samples.

Results

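Mouse gene symbols made of Gm and a number are placeholder names for predicted genes, given before a function is known, and 74 of them reached a mean deposited value of at least 5 over the 24 libraries of this adipose study. The table held 16233 genes in all, of which 889 carried such a symbol. A deposited value is a read count scaled by the authors to a common library size, in units close to CPM. The members were selected on the mean over all 24 libraries, so their levels are a description. No contrast was used in the choice, but a member close to the floor can have reached it through its higher group. Just inside the floor lay Gm10125 at 5.338, Gm23442 at 5.255 and Gm26671 at 5.027, and just outside it lay Gm19178 at 4.9, Gm17230 at 4.817 and Gm6330 at 4.731. In 59 of the 74 the mean was at least 5 in every group, and 15 had a mean under 5 in at least 1 group.

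RNA came from inguinal white adipose tissue, the subcutaneous fat of the groin, of male C57BL6 mice, aged 10 to 11 weeks per the series' design text, in 4 groups of 6 libraries. ZT15 RUN mice ran for 1 hour early in the active phase (ZT15), and ZT15 SED mice spent that hour on an artificial treadmill as a sham. ZT3 RUN and ZT3 SED mice were treated likewise early in the rest phase (ZT3), and ZT is the number of hours since the lights came on. The labels give no hour after the bout, no separate animal for each library and no transgene, so the p-values below measure the spread between these libraries.

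The libraries were made from total RNA after removal of ribosomal RNA, a preparation that keeps RNAs without a poly(A) tail. The symbols therefore cover very different molecules. Small nucleolar RNAs (snoRNAs) guide chemical modification of other RNAs: those of the box H/ACA class direct pseudouridylation, and those of the box C/D class direct ribose methylation. Small Cajal body RNAs (scaRNAs) do the same for the RNAs of the spliceosome. Both kinds are cut from the introns of host genes. Antisense RNAs are transcribed from the strand opposite a known gene, and processed pseudogenes are copies of spliced messenger RNAs pasted back into the genome. By the classes of GENCODE M21, a mouse gene annotation, the 74 comprised 16 antisense RNAs, 15 pseudogenes, 14 snoRNAs, 13 genes annotated as protein coding, 7 intergenic long RNAs (lincRNAs), 5 processed transcripts, 3 scaRNAs and 1 spliceosomal RNA.

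The sequences of the guide RNAs show what several unnamed symbols are. All 14 snoRNAs and 3 scaRNAs lay wholly inside a gene on the same strand in GENCODE M21, and shared 0 exon bases with it. In 10 of the 14 snoRNAs and in the scaRNA Gm22442 the letters ACA, the conserved end of the H/ACA class, stood exactly 3 bases from the 3′ end. Among all 1507 annotated snoRNAs this was so in 18.3%, and among 51 scaRNAs in 49.0%. The letters TGATGA within the first 25 bases and CTGA within the last 20, the C and D boxes, were found together in Gm22009, Gm25395, Gm25835 and Gm24339, against 20.6% of annotated snoRNAs and 9.8% of annotated scaRNAs. A match of letters is a description and not a test of function. The following GENCODE M21 transcripts, written as DNA from 5′ to 3′, carry these boxes, which stand in capitals. The first 4 are among the 12 members of highest mean value, and Gm24339, with a mean of 5.638, is shown as a short snoRNA with both C and D boxes.
Gm25117: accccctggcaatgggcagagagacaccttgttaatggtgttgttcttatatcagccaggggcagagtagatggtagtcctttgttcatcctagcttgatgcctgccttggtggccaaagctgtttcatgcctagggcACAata
Gm26397: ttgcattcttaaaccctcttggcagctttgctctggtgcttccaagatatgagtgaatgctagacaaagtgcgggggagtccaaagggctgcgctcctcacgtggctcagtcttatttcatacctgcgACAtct
Gm22442: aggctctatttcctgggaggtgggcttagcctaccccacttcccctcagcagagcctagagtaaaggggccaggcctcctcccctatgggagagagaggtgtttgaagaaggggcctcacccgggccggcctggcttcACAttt
Gm25395: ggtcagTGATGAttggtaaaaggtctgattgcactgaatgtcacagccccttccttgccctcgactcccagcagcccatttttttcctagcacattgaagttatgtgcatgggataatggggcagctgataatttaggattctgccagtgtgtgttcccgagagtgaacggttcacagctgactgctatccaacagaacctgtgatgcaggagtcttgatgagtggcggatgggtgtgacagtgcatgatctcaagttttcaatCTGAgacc
Gm24339: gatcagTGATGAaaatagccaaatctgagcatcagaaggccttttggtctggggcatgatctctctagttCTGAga
Gm25117 ends in ACA and 3 further bases, and lies in an intron of Nap1l1, which encodes a histone chaperone. Gm26397 lies in Tomm20, a receptor of the mitochondrial import machinery, and Gm22442 in the chromatin remodeller Chd3. Gm25395 lies in the autophagy gene Atg16l1, and the short Gm24339, of 76 bases, in the centrosomal gene Cep295.

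Some members were very close in sequence to each other or to another gene. Gm25788 and Gm22154 lie in the same gene, Pabpc4, which encodes a cytoplasmic poly(A)-binding protein, and differ at 4 of 131 bases. These are in capitals below.
Gm25788: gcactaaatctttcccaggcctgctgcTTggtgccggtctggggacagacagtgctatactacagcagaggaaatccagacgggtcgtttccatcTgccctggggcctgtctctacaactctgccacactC
Gm22154: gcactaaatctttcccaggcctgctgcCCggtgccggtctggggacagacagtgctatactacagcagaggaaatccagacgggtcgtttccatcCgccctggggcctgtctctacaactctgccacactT
The sequencing reads were pairs of 38 bases, and 30.9% of the 38-base windows of Gm22154 also occurred in Gm25788. Windows here and below were counted for single reads, and how many read pairs would be ambiguous was not tested. The values of these snoRNAs, 11.55 and 5.845 on average, are therefore uncertain as separate quantities. The spliceosomal member Gm22973 was 95.3% identical over its whole length to Rnu2-10, a gene for the small nuclear RNA that pairs with the branch point of introns, and held the letters GTAGTA of that pairing region from base 33 (in capitals).
Gm22973: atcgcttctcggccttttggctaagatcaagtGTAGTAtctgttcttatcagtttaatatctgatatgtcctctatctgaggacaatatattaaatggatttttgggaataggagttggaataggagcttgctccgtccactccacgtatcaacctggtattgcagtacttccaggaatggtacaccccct

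Per length of annotated exon, the guide RNAs stood far above the other classes. Their transcripts are 76 to 343 bases long, so reads that only partly overlap them, or come from the host intron, can raise this measure. The part of such reads was not tested. The scaRNA Gm22009, in the nuclear import gene Kpna4, had 372 units per kilobase of exon, Gm25117 had 260.2, Gm26397 had 205.2, Gm22442 had 180.2 and Gm25395 had 164.1, all as means over 24 libraries. The 18 highest members on this scale were the 17 guide RNAs and Gm22973, and the lowest of these 18 had 34.8. The next was the antisense RNA Gm15551 at 18.1, followed by the pseudogene Gm7908 at 16.6. Without length, the highest mean values were 127.6 for Gm22009, 100.7 for the pseudogene Gm8995, 78.2 for the lincRNA Gm33989 and 44.6 for Gm25395. Every member had reads in every library, from 24 to 17859 with a median of 241. Together they took 0.107 ± 0.0155% of the summed values in ZT15 RUN and 0.120 ± 0.0255% in ZT15 SED, and 0.120 ± 0.0388% in ZT3 RUN and 0.107 ± 0.00782% in ZT3 SED (SD, n = 6 each).

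**Figure D1:**
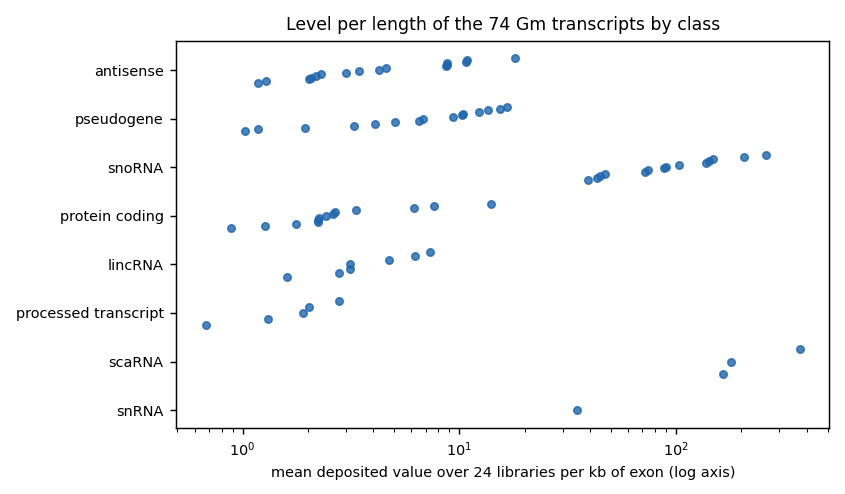
Mean deposited value per kilobase of exon, on a log axis, for each of the 74 transcripts by GENCODE M21 class; each point is 1 transcript averaged over 24 libraries. The snoRNAs and scaRNAs lie from 39.2 to 372, and the spliceosomal RNA at 34.8, with no overlap with the other classes, which reach 18.1.

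Markers of other tissues differed between the libraries. All 12 adipocyte markers were detected in every library. Cd79a, a subunit of the B cell receptor, stood at 14.1 in ZT15_SED_3, 54.6 in ZT15_SED_5 and 99.2 in ZT3_RUN_4, while the other 21 libraries reached no more than 1.33. The 20 lymphocyte markers, of which 0 were at 0 in any library, summed to between 70.0 and 188.4 in ZT15 RUN and 111.6 to 1902 in ZT15 SED, and to 80.9 to 2756 in ZT3 RUN and 110.9 to 138.9 in ZT3 SED. The 16 skeletal muscle markers ranged from 234 to 50300 in ZT15 RUN and 85.1 to 45680 in ZT15 SED, and from 471 to 13890 in ZT3 RUN and 114 to 19850 in ZT3 SED, and their part in the results below was not tested outside the fit with marker covariates. Depth ran from 18.5 M to 34.7 M reads, and the shallowest library was ZT15_RUN_5. In bulk RNA, fewer cells of a type and less RNA per cell cannot be told apart.

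Of the members, 7 (9.46%) were higher in each of the 3 libraries rich in Cd79a than in any other library, which was so for 1076 of all 16233 genes (6.63%). Another 2, Gm13544 and Gm15910, were lower in each of these than in any other library, as were 161 of all genes. The largest ratio of highest to lowest library, after adding 1 to each, belonged to Gm8369, annotated as protein coding and flanked by Ms4a6c and Ms4a6b, genes of a family of membrane proteins of immune cells. Its value was 12.4 in ZT15_SED_3, 32.7 in ZT15_SED_5 and 46.7 in ZT3_RUN_4, and lay between 1.622 and 7.45 elsewhere. Ms4a4b, a T cell gene of the same family, was at 30.2, 76.3 and 95.0 in those libraries, in the same order, and at 1.85 to 6.91 elsewhere. Gm8995, a pseudogene 91.8% identical to Gvin1, which encodes a very large interferon-inducible GTPase, had 151.3, 351.1 and 543.2, against 43.6 to 102.6 elsewhere. Gvin1 itself was at 4.27, 3.89 and 9.64 there, against 2.20 to 5.63 elsewhere, so only ZT3_RUN_4 lay above that range. The scaRNA Gm22442 was at 60.7, 71.0 and 85.2, against 14.0 to 26.8 elsewhere. Its host Chd3 was at 93.95, 186.4 and 185.1, against 49.5 to 84.95 elsewhere. The part of these libraries' lymphocyte content in the levels of these members was not tested.

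**Figure D2:**
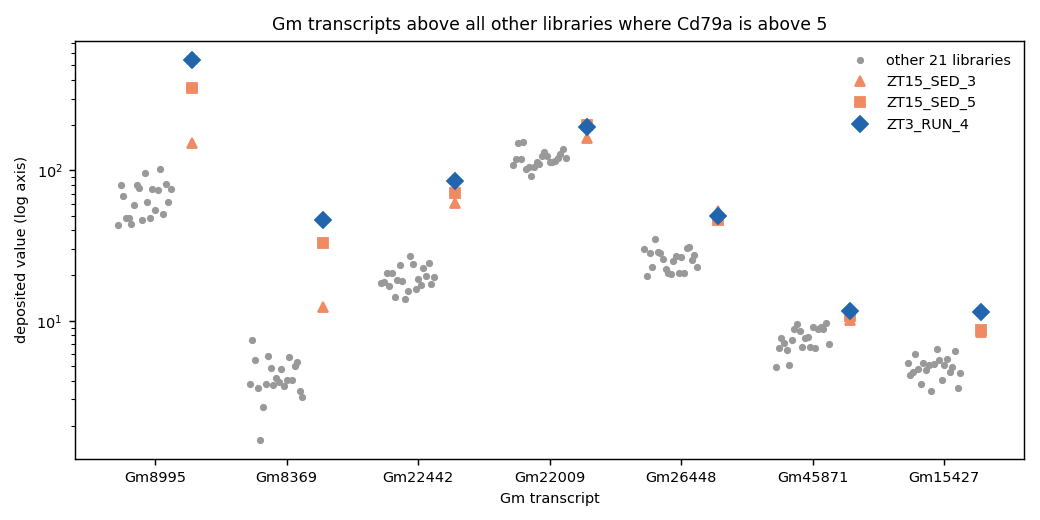
Deposited value, on a log axis, of the 7 transcripts that lay above all other libraries where Cd79a was above 5; grey points are the other 21 libraries and coloured symbols the 3 rich in Cd79a. Gm8995 and Gm8369 stand farthest apart, at up to 543.2 and 46.7 in ZT3_RUN_4.

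Exercise at ZT15 was compared with sham at ZT15 with limma over the whole table (Benjamini-Hochberg adjustment, threshold 0.05). Of the 74 transcripts, 3 rose and 0 fell. All 3 lie opposite a gene of another name: Gm16159, an antisense RNA of the fibroblast growth factor receptor gene Fgfr1; Gm19221, a processed pseudogene inside Sav1, a scaffold of the Hippo pathway; and Gm15737, opposite the matrix protease gene Adamts9. The share called was 4.05%, against 0.641% of all genes and 0.638% of the other 11136 genes of mean at least 5 (71 called). It was 0.595% of 168 clone symbols ending in Rik (1 called). Of 52 named long noncoding RNAs listed, 40 were in the table at any mean, and 2.5% of these were called (1 called). Among the 32 of mean at least 5 the share was 3.12% (1 called). At an unadjusted p under 0.05 there were 15 members (20.3%), against 12.7% of all genes and 20.2% of the Rik symbols. The median log2 difference over the members was -0.01 and over all genes 0.00. With quantile normalization it was 0.055 over the members and -0.0014 over all genes. With median centring it was 0.046 over the members and 0.058 over all genes.

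Gm16159 (ENSMUSG00000086134) had 12.4, 17.9 and 32.9 as its lowest, median and highest value in ZT15 RUN, against 4.44, 5.62 and 7.29 in ZT15 SED. Every exercised library lay above every sham library. The log2 difference was 1.61 ± 0.25 (SE; limma adjusted p = 0.00508). Fgfr1, on the other strand, shares 164 exon bases with it and averaged 344.3 ± 97.96 in ZT15 RUN and 201.6 ± 38.2 in ZT15 SED (SD, n = 6), a log2 difference of 0.75 ± 0.19 that missed the threshold (adjusted p = 0.0613). GENCODE M21 held no other transcript with a 38-base window of Gm16159 outside its own locus.

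Gm19221 (ENSMUSG00000113491) had 20.4, 35.0 and 48.7 as lowest, median and highest value in ZT15 RUN, against 9.15, 10.9 and 11.95 in ZT15 SED. Again the groups did not overlap, and the log2 difference was 1.57 ± 0.24 (limma adjusted p = 0.00508). The named gene most like it in sequence, Ppp2r2a, a regulatory subunit of a serine/threonine phosphatase, is 93.9% identical to it and holds 25.6% of its 38-base windows. Ppp2r2a differed by 0.22 ± 0.09 (adjusted p = 0.309), at 55.3 ± 5.82 in ZT15 RUN and 47.5 ± 5.07 in ZT15 SED. Sav1, the gene around Gm19221 on the opposite strand, was higher in ZT15 RUN by 1.09 ± 0.19 (adjusted p = 0.0122), at 178.2 ± 50.4 against 80.6 ± 8.21 in ZT15 SED. The exons of Sav1 and Gm19221 share 0 bases.

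Gm15737 (ENSMUSG00000079462), protein coding in GENCODE M21 and a long noncoding RNA in RefSeq, had 9.59, 23.4 and 32.5 as lowest, median and highest value in ZT15 RUN, against 5.07, 6.61 and 9.88 in ZT15 SED. The groups overlapped, since ZT15_RUN_3 at 9.59 lay below ZT15_SED_4 at 9.88. The log2 difference was 1.48 ± 0.28 (limma adjusted p = 0.0170). Adamts9, which shares 424 exon bases with it on the other strand, averaged 234.2 ± 88.4 in ZT15 RUN and 112.6 ± 21.4 in ZT15 SED, a difference of 0.98 ± 0.24 with adjusted p = 0.0519. The call of Gm15737 was lost without the 3 libraries rich in Cd79a (adjusted p = 0.0605), without ZT15_RUN_4 (0.0556) and without ZT15_RUN_5 (0.0658). Gm16159 and Gm19221 were still called in each of these fits, both at 0.0328 without the Cd79a-rich libraries.

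The strand setting of the authors' counting is not given in the sources used here. The reads of a Gm transcript and of the gene opposite it may therefore not be fully separated. This holds also where their exons share 0 bases, since introns of the gene opposite may be read in total RNA. Whether each Gm transcript differed more than its partner was not tested. A further 2 members separated the ZT15 groups completely without passing the test, named here after their values were seen. Gm18258, a pseudogene on the strand opposite the mitophagy gene Bnip3 and inside it, had 8.45, 10.8 and 16.9 in ZT15 RUN, against 2.93, 3.61 and 7.61 in ZT15 SED (1.26 ± 0.31, limma adjusted p = 0.0601), and Bnip3 differed by 0.33 (adjusted p = 0.558). Gm12758, antisense to Garre1, had 12.75, 17.8 and 22.7 in ZT15 RUN, against 4.01, 8.28 and 10.6 in ZT15 SED (1.10 ± 0.31, limma adjusted p = 0.0935), and Garre1, which shares 2696 exon bases with it, by 0.98 (adjusted p = 0.0965). In all, 4 of 74 members (5.41%) were higher in every ZT15 RUN library than in any ZT15 SED library and 0 were lower throughout, against 163 higher and 121 lower among all genes (1.75%). The count holds Gm18258, which had a mean under 5 in ZT15 SED and so reached the floor through its other groups. Among the members not called, the one of smallest p with a negative difference was Gm45871, annotated as protein coding, at -0.49 ± 0.13 (adjusted p = 0.0781). It is among the 7 that were highest in the Cd79a-rich libraries, of which ZT15_SED_3 and ZT15_SED_5 are sham libraries, at 10.15 and 10.8, against at most 9.61 in the 21 others.

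**Figure D3:**
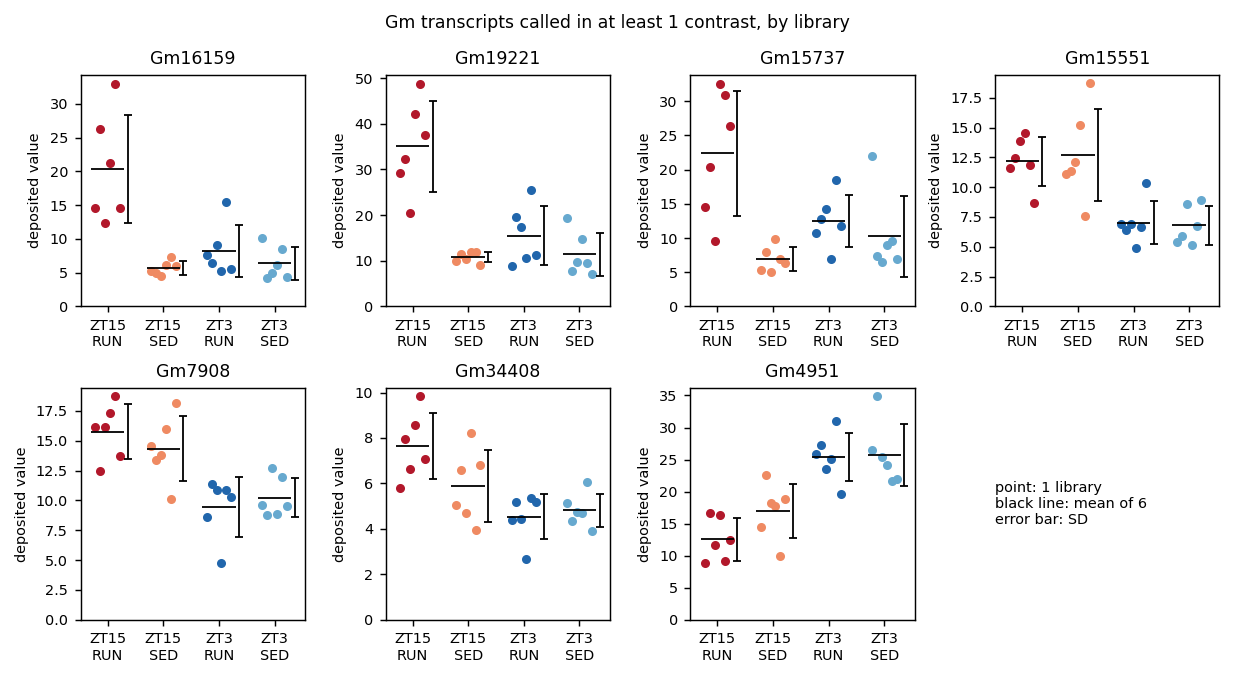
Deposited value of the 7 transcripts called in at least 1 contrast, 1 point per library, with the mean (line) and SD (bar) of each group of 6. Gm16159 and Gm19221 in ZT15 RUN lie above every ZT15 SED library, and Gm4951 in ZT15 RUN lies below every ZT3 RUN library.

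For exercise at ZT3, 0 members passed the threshold, beside 0% of all genes. With limma 1 member had an unadjusted p under 0.05, against 368 of all genes, and edgeR and DESeq2 also called 0 members. That member was Gm13544, antisense to Acvr1c, an activin-family receptor of fat cells: it had 2.65, 4.44 and 7.99 as lowest, median and highest value in ZT3 RUN, against 5.78, 7.01 and 9.69 in ZT3 SED (-0.56 ± 0.22, adjusted p = 0.989). Its lowest value was in the Cd79a-rich ZT3_RUN_4. Next by p came the pseudogene Gm2011 (-0.16 ± 0.09) and Gm12758 (0.52 ± 0.31), both with adjusted p = 0.989. Gm16159, Gm19221 and Gm15737 differed by 0.30 ± 0.25, 0.41 ± 0.24 and 0.33 ± 0.28 at ZT3.

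The difference between the exercise effects at ZT15 and at ZT3 was tested as an interaction and passed for 0 members, and for 0% of all genes. The smallest p-values were those of Gm16159 (1.31 ± 0.35), Gm19221 (1.17 ± 0.34) and Gm13544 (0.97 ± 0.30), each with limma adjusted p = 0.583. At an unadjusted p under 0.05 there were 7 members (9.46%, against 7.84% of all genes), edgeR called 0, and DESeq2 on recovered reads called 1, Gm16159 (1.48, adjusted p = 0.0236). Averaged over both times, 2 members rose with exercise, Gm19221 by 0.99 ± 0.17 and Gm16159 by 0.95 ± 0.18 (both limma adjusted p = 0.0375), with 0.142% of all genes called. Both calls were lost without the Cd79a-rich libraries, at 0.0555 and 0.0598, and in 17 of the 24 fits without a single library 0 members were called (range 0 to 4). The comparisons with ZT15 RUN share its libraries and are not independent of each other.

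**Figure D4:**
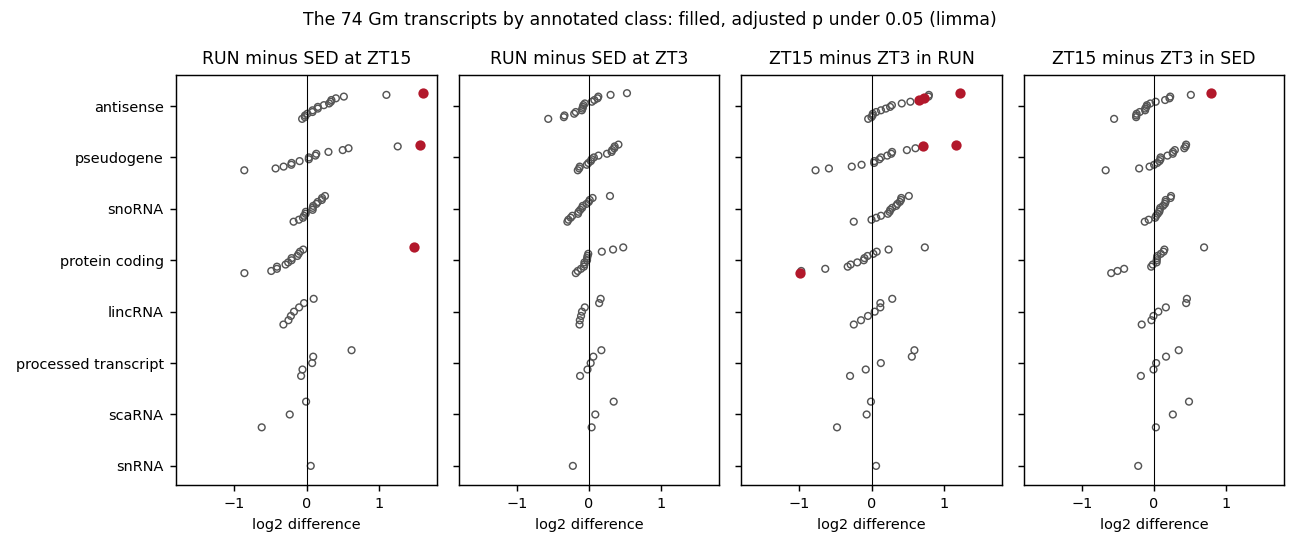
Log2 differences of the 74 transcripts in 4 contrasts, by GENCODE M21 class; each circle is 1 transcript, filled where the limma adjusted p was under 0.05. Filled circles number 3 for exercise at ZT15, 0 for exercise at ZT3, 6 for ZT15 against ZT3 in RUN and 1 for the same in SED.

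Time of day was compared within each treatment. Among exercised mice 6 members differed between ZT15 and ZT3 (8.11%, against 4.19% of all genes), 5 higher at ZT15 and 1 lower. The count holds Gm34408, which had a mean under 5 at ZT3, and among the 59 members of mean at least 5 in every group 5 were called (8.47%). The share was 4.17% of the Rik symbols and 5.02% of the other genes of mean at least 5. Besides Gm16159 (1.22 ± 0.25, adjusted p = 0.00708) and Gm19221 (1.17 ± 0.24, adjusted p = 0.00825), these were Gm15551, Gm7908 and Gm34408, which were higher, and Gm4951, which was lower. Among sedentary mice 1 member differed (1.35%, against 1.18% of all genes), which was Gm15551. Alternative fits called others there. Gm7908 passed without the Cd79a-rich libraries (0.56, limma adjusted p = 0.0187) and with lymphocyte and muscle covariates (0.63, limma adjusted p = 0.00146). Gm34408 passed with those covariates (0.37, limma adjusted p = 0.0357), and Gm4951 with DESeq2 (-0.60, adjusted p = 0.0402). Calls in RUN alone are therefore not read as differences confined to exercised mice. The members' median log2 difference was 0.12 in exercised mice and 0.05 in sedentary mice, beside -0.01 and 0.02 over all genes.

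Gm4951 (ENSMUSG00000073555) had 8.85, 12.1 and 16.6 as lowest, median and highest value in ZT15 RUN, against 19.7, 25.5 and 31.0 in ZT3 RUN. No library of these groups overlapped, and it fell by 0.99 on the log2 scale (SE 0.17; limma adjusted p = 0.00211). RefSeq gives Ifgga2 as another name of this gene, which belongs to the interferon-inducible immunity-related GTPases, proteins that attack the vacuoles of intracellular parasites. The summed value of 8 macrophage markers, of which 0 were at 0 in any library, had medians of 1104 in ZT15 RUN and 1548 in ZT3 RUN, and of 1292 in ZT15 SED and 1720 in ZT3 SED. It ranged from 695.5 to 2417 in ZT15 RUN and from 1358 to 2524 in ZT3 RUN. In ZT15 RUN both this sum and Gm4951 were highest in ZT15_RUN_2. In ZT3 RUN the sum was highest in ZT3_RUN_2, and Gm4951 in ZT3_RUN_5, where the sum was 1450. The part of macrophage content was not tested. In sedentary mice Gm4951 had 9.99, 18.0 and 22.6 at ZT15, against 21.6, 24.7 and 34.9 at ZT3 (-0.59 ± 0.17, adjusted p = 0.0970). Gm5431, a GTPase gene of the same family (Irgb9b8 in RefSeq) and 95.7% identical to 9930111J21Rik1, had 1.44, 4.92 and 13.5 in ZT15 RUN, against 7.88, 11.3 and 14.7 in ZT3 RUN (-0.97 ± 0.31, adjusted p = 0.0783). More than 50% of its 38-base windows (54.4%) occur in other genes, so its reads cannot be assigned with certainty. Gvin1, the GTPase gene like Gm8995, was lower in ZT15 RUN than in ZT3 RUN by -0.62 ± 0.17 (adjusted p = 0.0428). Its mean was only 2.74 in ZT15 RUN. In ZT3 RUN it was at 9.64 in the Cd79a-rich ZT3_RUN_4, and at 3.19 to 5.63 in the others.

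Gm15551 (ENSMUSG00000086679), antisense inside Camk2d, which encodes a calcium- and calmodulin-dependent kinase, had 8.64, 12.2 and 14.5 as lowest, median and highest value in ZT15 RUN, against 4.90, 6.79 and 10.3 in ZT3 RUN. In sedentary mice it had 7.54, 11.7 and 18.8 at ZT15, against 5.15, 6.32 and 8.94 at ZT3. In both treatments the values were higher at ZT15 with some overlap. The log2 differences were 0.73 ± 0.18 in RUN (limma adjusted p = 0.0241) and 0.79 ± 0.18 in SED (0.0267). Camk2d differed by 0.37 ± 0.09 in RUN (adjusted p = 0.0162) and 0.15 ± 0.09 in SED (0.520), and their exons share 0 bases. In SED the call was lost under quantile normalization (0.0723), under median centring (0.0666) and when the fit held only these groups (0.0654), and in RUN with only these groups (0.0597) and without ZT3_RUN_4 (0.0576), ZT15_RUN_4 (0.0646) or ZT15_RUN_5 (0.0504).

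Gm7908 (ENSMUSG00000115602), a processed pseudogene inside the focal adhesion kinase gene Ptk2, had 12.5, 16.1 and 18.7 as lowest, median and highest value in ZT15 RUN, against 4.75, 10.6 and 11.35 in ZT3 RUN. The groups did not overlap (0.71 ± 0.16, limma adjusted p = 0.0154). In sedentary mice Gm7908 lay between 10.1 and 18.2 at ZT15, against 8.80 to 12.7 at ZT3. It is 97.3% identical to Hacd2, a gene of very long chain fatty acid elongation, and 43.4% of its 38-base windows occur in Hacd2. Hacd2 was itself higher, at 268.9 ± 54.0 in ZT15 RUN and 153.2 ± 35.1 in ZT3 RUN (0.82 ± 0.17, adjusted p = 0.00910). The host Ptk2 differed by 0.28 ± 0.09 (adjusted p = 0.0848). Reads of Gm7908 and Hacd2 may be shared, and their parts in the difference were not tested.

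Gm34408 (ENSMUSG00000113005), antisense inside Agmo, whose enzyme cleaves ether lipids, had 5.78, 7.51 and 9.85 as lowest, median and highest value in ZT15 RUN, against 2.68, 4.79 and 5.34 in ZT3 RUN. There was no overlap (0.65 ± 0.15, limma adjusted p = 0.0192). In sedentary mice Gm34408 lay between 3.96 and 8.23 at ZT15, against 3.91 to 6.06 at ZT3. Its mean was under 5 at ZT3, so it reached the floor through the ZT15 libraries, where it is higher. Agmo differed in the same direction, at 132.9 ± 19.7 in ZT15 RUN and 78.7 ± 16.1 in ZT3 RUN (0.77 ± 0.15, adjusted p = 0.00513). Without ZT15_RUN_4 or ZT15_RUN_5 the adjusted p of Gm34408 was 0.0520 or 0.0582. With only the exercised groups in the fit, 1 of the 6 calls (Gm4951) passed. Over all genes 2.27% separated ZT15 RUN from ZT3 RUN completely, and the members that did were Gm34408, Gm7908 and Gm4951 (4.05%).

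**Figure D5:**
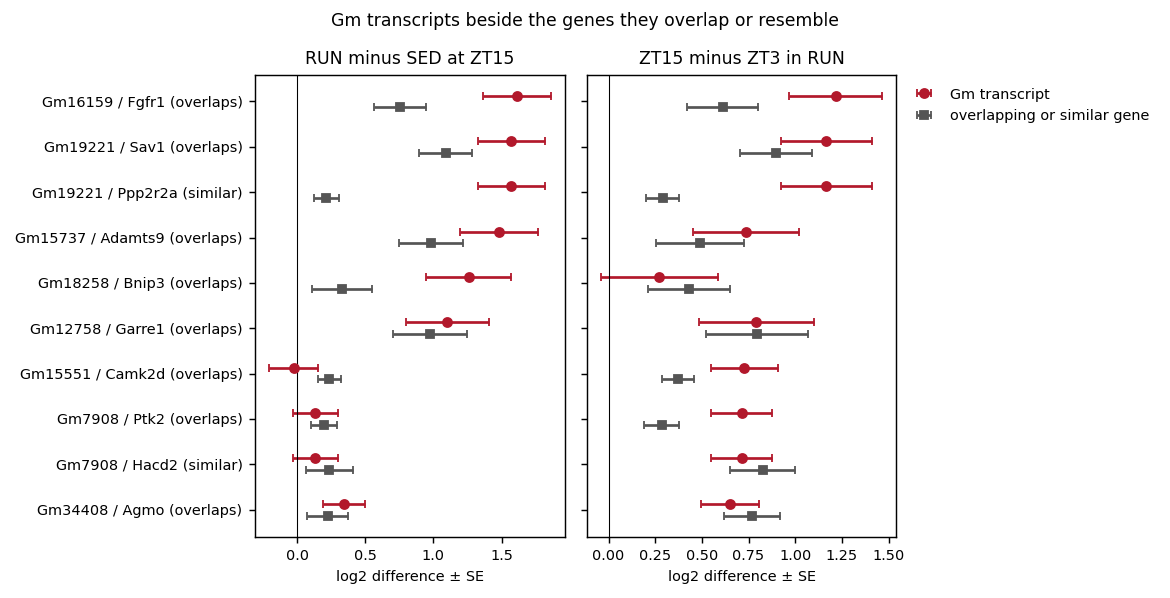
Log2 differences with SE of 8 Gm transcripts (red circles) and of the gene each overlaps or resembles (grey squares), for exercise at ZT15 (left) and ZT15 against ZT3 in exercised mice (right). Gm19221 at 1.57 stands apart from Ppp2r2a at 0.22 in the left panel, and Gm7908 at 0.71 lies close to Hacd2 at 0.82 in the right panel.

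Promoter sequences were found in the RefSeq table (GRCm38.p6) for 32 of the 74 members, among them Gm15737 and Gm15551. They are shown because these members were called, from 250 bases before the annotated start to 50 bases after it. The Gm15737 promoter is chr6:92869107-92869406 on the plus strand, and that of Gm15551 is chr3:126668894-126669193 on the minus strand.
Gm15737: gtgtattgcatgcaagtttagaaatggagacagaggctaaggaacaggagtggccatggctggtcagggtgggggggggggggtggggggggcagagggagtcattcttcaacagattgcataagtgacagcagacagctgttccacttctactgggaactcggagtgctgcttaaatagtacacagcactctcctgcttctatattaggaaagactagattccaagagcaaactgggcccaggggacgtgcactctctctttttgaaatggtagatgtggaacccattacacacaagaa
Gm15551: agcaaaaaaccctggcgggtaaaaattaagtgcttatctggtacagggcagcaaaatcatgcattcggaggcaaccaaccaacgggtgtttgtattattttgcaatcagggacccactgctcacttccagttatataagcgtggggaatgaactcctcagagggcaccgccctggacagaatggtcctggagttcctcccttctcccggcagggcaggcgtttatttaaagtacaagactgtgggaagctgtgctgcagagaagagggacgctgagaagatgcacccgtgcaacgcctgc
Neither window held, on either strand, the E-box CACGTG bound by the clock proteins, the AP-1 site TGANTCA, the cyclic AMP response element TGACGTCA, its part TGACG, or AAAGGTCA, the site of the NR4A receptors. The promoter of Gm34408 held none of them either. Over the 32 promoters the E-box was found in 3, TGANTCA in 5 and TGACG in 3 (9.38%, 15.6% and 9.38%), against 7.24%, 7.93% and 21.0% of 27025 promoters of the same length, and TGACGTCA and AAAGGTCA in 0, against 1.88% and 1.46%. The search for TGACG also counts every TGACGTCA.

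By class, 0 of the 17 snoRNAs and scaRNAs passed in any of the 6 contrasts with limma, in which 0% to 4.19% of all genes passed, so nothing about the class is read from that count. Their log2 differences for exercise at ZT15 lay between -0.18 and 0.25 for the snoRNAs and between -0.62 and -0.01 for the scaRNAs. Differences above 0 numbered 8 of 14 and 0 of 3 (medians 0.08 and -0.23), and without the Cd79a-rich libraries 14 of 14 and 2 of 3 (0.17 and 0.05). Of the 14 snoRNAs, 8 had their highest value in ZT15_RUN_5, the shallowest library, and 5 in ZT15_SED_3. The summed snoRNA value was 361.1 in ZT15_RUN_5, against 164.9 in the lowest ZT15 RUN library, and 330.0 in ZT15_SED_3, against 175.4 in the lowest ZT15 SED library. Nap1l1, the host of Gm25117, averaged 171.2 ± 27.8 in ZT15 RUN and 168.1 ± 28.6 in ZT15 SED (SD, n = 6; log2 difference 0.03, limma adjusted p = 0.953). The part of depth in the snoRNA values was not tested. Among the 16 antisense RNAs 1 was called for exercise at ZT15 and 3 for ZT15 against ZT3 in exercised mice. The 3 include Gm34408, which reached the floor through its ZT15 libraries. Differences above 0 were found in 13 and 14 of the antisense RNAs, with medians of 0.20 and 0.27 on the log2 scale. Over all genes 0.641% and 4.19% were called and 50.7% and 48.9% were above 0. For exercise at ZT3 and for ZT15 against ZT3 in sedentary mice, 6 of the 16 were above 0 (medians -0.08 and -0.10), beside 51.8% and 54.0% of all genes. In the first pair of contrasts, 15 and 16 were above 0 with quantile normalization or median centring, and without the Cd79a-rich libraries 10 and 12.

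The pseudogenes and gene copies need the most care in reading. More than 50% of the 38-base windows were shared with another locus in 10 members, among them the pseudogenes Gm6206 (91.3%, with the ubiquitin ligase gene Cop1), Gm4204 (90.1%, with Nap1l1) and Gm7049 (58.7%, with the malic enzyme gene Me1), the genes annotated as protein coding Gm14326 (92.5%), Gm14325 (87.8%), Gm14410 (82.1%) and Gm15446 (60.0%) and Gm5431 (54.4%), and the snoRNA Gm25788 (58.5%). None of these 10 was called in any contrast with limma. In 31 members no window occurred elsewhere in the annotated transcripts. The genome was not searched, so windows in unannotated sequence are not counted.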

How the data were processed

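Total RNA of 24 inguinal white adipose libraries was sequenced as 38-base read pairs after ribosomal RNA removal, per the labels' protocols. The deposited table gives 1 signal per gene and library, which the authors made from whole reads scaled as CPM with a TMM factor per library: 100% of values came out whole within 0.01 read, and the factor matched TMM to 3.3e-16. The submitters' processing notes list, without roles, limma 3.48.3, featureCounts, Subread 1.6.2 and STAR. No build, annotation or strand setting is named in the sources used here. From the signal, log2(value + 1) of all 16233 genes was fitted with limma 3.58.1 (R 4.3.3, trend, 4 group means, 24 libraries), with Benjamini-Hochberg adjustment over all genes and a threshold of 0.05. edgeR 4.0.16 and DESeq2 1.42.0 on the recovered reads, other scalings, pseudocounts, filters, fits with fewer groups, marker covariates and leaving out libraries were alternatives. The limma step was tested on simulated data.

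The members and lists were chosen with earlier results of these data known. Named were, per contrast, every member past the threshold or, with none, the 3 of smallest p, and also the 12 of highest mean, the 5 of widest range and 3 on each side of the floor. Others were named for class or sequence, or after their values were seen. All 16233 gene IDs matched GENCODE M21, and 15900 had the same symbol there. All 74 members matched RefSeq.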

Additional observations from a re-analysis of the deposited data

Results flagged for a closer look

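In 20 of 136 sets of 6 libraries examined, 1 library lay far from the other 5, by Dixon's test at the 95% level. Chance gives about 1 in 20 where sets are independent and not chosen by their values. These sets share libraries, some members were named for their wide range, and the pseudogene sum includes Gm8995. The count of 20 can therefore not be set against that rate. Of the 20 far libraries, 10 were ZT3_RUN_4 and 3 were ZT15_SED_5, both rich in Cd79a.

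In ZT3_RUN_4, Gm8995 was at 543.2 (48.1 to 96.0 in the other 5 ZT3 RUN libraries), Gm8369 at 46.7 (3.69 to 4.78), Gm22009 at 192.6 (109.4 to 132.1) and Gm22442 at 85.2 (15.85 to 26.8). There too, Gm26448 was at 49.9 (20.6 to 27.0), Gm15427 at 11.4 (4.02 to 6.495) and Gm34408, below the others, at 2.68 (4.39 to 5.34). The members' share of the table was 0.199% (0.0981 to 0.110), the summed scaRNA value 343.3 (156.1 to 202.8) and the summed pseudogene value 638.4 (168.0 to 204.6). In ZT15_SED_5, Gm8995 was at 351.1 (46.7 to 151.3 in the other ZT15 SED libraries), Gm8369 at 32.7 (3.75 to 12.4) and the summed pseudogene value at 464.8 (163.0 to 252.0).

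The other 7 cases were in libraries without high Cd79a. In ZT3_SED_1, Gm12758 was at 17.0 (4.45 to 7.18 in the other ZT3 SED libraries) and Gm15737 at 22.0 (6.54 to 9.61). Gm4951 was at 34.9 in ZT3_SED_2 (21.6 to 26.4), and Gm13544 at 8.40 in ZT15_SED_4 (3.40 to 5.17 in the other ZT15 SED libraries). Gm15551 was at 10.3 in ZT3_RUN_6 (4.90 to 6.91), and in ZT3_RUN_3 Gm23442 was at 7.42 (3.29 to 4.496) and Gm26397 at 31.1 (20.6 to 23.8). The causes were not tested.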

How the results depend on the processing

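For exercise at ZT15, 5 members were called with only the compared groups in the fit and 6 with DESeq2, which added Gm12758, Gm18258 and Gm45871. Leaving out single libraries gave 2 to 5, and 5 without ZT15_RUN_3, ZT3_RUN_4 or ZT3_SED_1. The calls of Gm16159 and Gm19221 there were kept under all alternatives run (adjusted p up to 0.0328), as was that of Gm4951 between ZT15 RUN and ZT3 RUN (up to 0.0168). For the interaction DESeq2 called 1. Between ZT15 SED and ZT3 SED the count was 0 with quantile normalization, median centring or only the compared groups, 3 with lymphocyte and muscle covariates, 2 without the Cd79a-rich libraries, 2 with DESeq2 and 0 to 1 leaving out single libraries (0 without ZT15_SED_3, 4 or 6, or ZT3_SED_1, 2 or 4). Between ZT15 RUN and ZT3 RUN it was 1 with only the compared groups. Averaged over times it was 1 with quantile normalization, 0 without the Cd79a-rich libraries, 4 with DESeq2 and 0 to 4 leaving out single libraries (0 in 17 of 24). A floor of 2 or 10 gave 183 or 32 members. The causes were not tested, and no called difference changed sign. No paired analysis was possible because the labels give no replicate numbers shared between groups. This holds for labelled pairs only. The sample titles carry numbers from 1 to 24, each used once, with RUN at odd and SED at even numbers. Each odd number and the next even number come from the same time. The labels do not call them pairs, and a fit with them as pairs was not run. A term for 3 blocks of 8 consecutive title numbers, which the labels do not call a batch, gave 3 calls for exercise at ZT15, 0 at ZT3, 0 for the interaction, 1 between times in SED, 7 in RUN and 2 averaged. The rRNA-locus alternatives were not run, since 0 genes of that list were in the table. The fewest reads of a member in a library were 24, for Gm5431 in ZT15_RUN_5, the shallowest library.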
